A study of Caenorhabditis elegans with 10 samples.

Results

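Larvae of Caenorhabditis elegans that had been fed for 3 h after starvation were compared with larvae that had not yet been fed. The comparison covered all 13374 gene units of the deposited counts, in 5 of the 10 libraries of the series: 2 of larvae fed for 3 h and 3 of starved larvae. A gene unit is a gene, or a few merged genes that overlap, and its count is the sum over the exonic bins into which its exons were divided. All libraries held polyadenylated RNA of whole larvae of the wild-type strain N2 at the L1 stage. In both groups embryos from bleached cultures hatched in medium without food at 20 °C and were held until 24 h after bleaching, which left the larvae about 12 h in arrest. Starved larvae were collected at that point, and the rest of the culture was given E. coli HB101 at 25 mg/mL and collected 3 h later. No unfed library from the 3 h time was analysed here, so feeding and 3 h of elapsed time cannot be told apart.

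A larva that hatches without food stops in the L1 stage: its blast cells do not divide, and it lives on stored fat. Food restarts growth through several sensors. Insulin-like peptides activate the receptor DAF-2 and a kinase chain that keeps the transcription factor DAF-16 out of the nucleus, while the TOR kinase and AMP-activated protein kinase respond to amino acids and energy. Ribosome production, cell division and the program that ends in the molt follow.

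Summed counts were 19163997 and 23179502 in the libraries at 3 h and 22433271, 38607167 and 22481641 in the starved libraries. Reads outside the bins made up 8.61% to 8.99% at 3 h and 9.59% to 11.4% in starved larvae of the bin counts and outside reads together. A read over several bins is counted in each, so these are not shares of the reads. Across genes, which are no independent replicates, Pearson's r of log2 CPM was 0.985 between the libraries at 3 h, 0.973 to 0.978 between starved libraries and 0.885 to 0.893 across the groups. Levels below are CPM, read counts relative to a library total scaled by TMM factors and set to 1e6, for replicates 1, 2 and 3 in that order, and fold changes are log2 values of fed 3 h over starved ± SE. A gene was called at an adjusted p under 0.05 in edgeR's quasi-likelihood test.

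At 3 h, 41.6% of the 13226 units tested differed from starved larvae: 21.9% were higher (2896 units) and 19.7% were lower (2605 units). More than 8-fold changes were rarer, with 0.99% of the units called and over 8-fold higher and 1.91% called and over 8-fold lower. The libraries of the 2 groups did not overlap for 31.8% of the units with 3 h above and for 30.8% with 3 h below. Lack of overlap alone therefore does not mark a gene out, and the rankings by fold change and by CPM below required it. Units with a higher mean over all 10 libraries were called higher more often. Fed libraries enter that mean, so a gene that rises also moves toward a higher class, and this part was not separated. The share called higher went from 5.24% of units with a mean log2 CPM under 0 to 42.7% of those at 8 or more, while the share called lower lay between 17.1% and 22.6% in all 6 classes of level. Chromosome V differed in its split, with 18.9% of its units called higher and 25.5% lower, against 25.2% and 16.5% on chromosome I and 25.3% and 17.5% on chromosome III. The split between rises and falls depended on the scaling: 52.6% of the calls were higher with TMM, 42.8% with upper-quartile factors and 36.1% with library totals alone, and the median log2 fold change of all units moved from -0.02 to -0.16 and -0.26. The levels given are relative ones, and a shift shared by most genes is not seen in them. Without replicate 1 at 3 h, 2096 units were higher and 1648 lower, and without replicate 2 at 3 h, 2113 and 1654. Those fits assume that the single library at 3 h has the spread of the other groups.

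**Figure D1:**
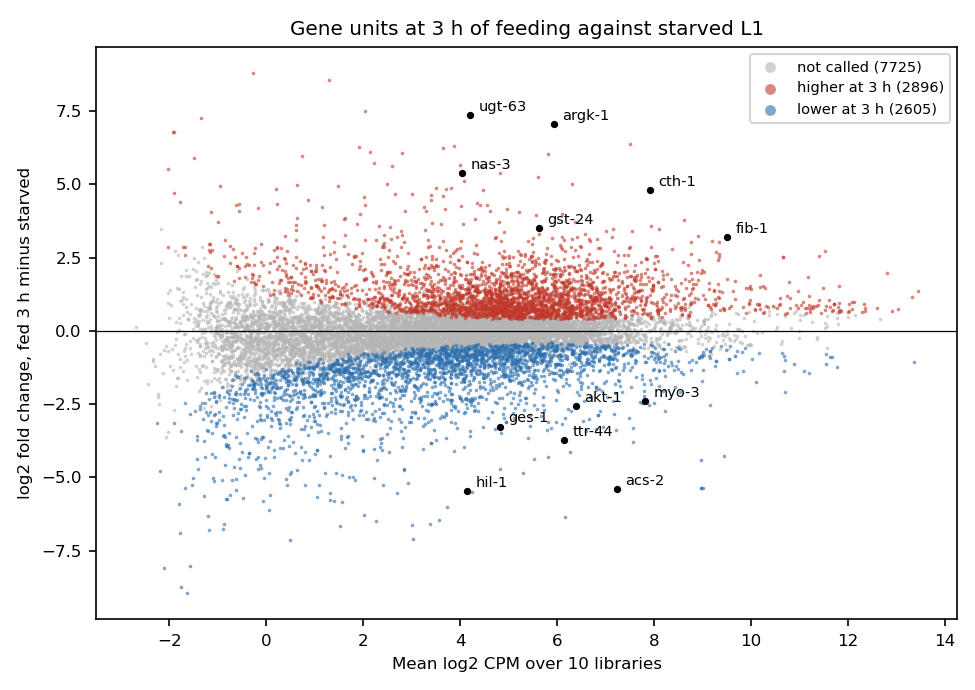
Log2 fold change at 3 h against starved larvae (y axis) over the mean log2 CPM of the 10 libraries (x axis) for each of the 13226 gene units tested. The 2896 units called higher are red, the 2605 called lower are blue and the rest grey, and the black points are 12 genes described in the text.

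The largest rises among well-expressed genes were those of single genes of different kinds, led by ugt-63 and argk-1. Well-expressed here means a mean log2 CPM of at least 4 over all 10 libraries, fed ones included. The UDP-glucuronosyltransferase gene ugt-63 (C04F5.7, chromosome V, 5108000 to 5110774, in coordinates of build WS210), whose family attaches sugars to small molecules, measured 0.766, 0.897 and 0.555 CPM in starved larvae and 129 and 125 CPM at 3 h. Every starved library was below 1 CPM and both fed libraries above 100 CPM. The log2 fold change was 7.38 ± 0.21 (adjusted p = 4.72e-11), and the mean at 1 h, 177 CPM, was higher still. The arginine kinase gene argk-1 (F44G3.2, chromosome V, 16103868 to 16106114), which buffers ATP, was at 1.53, 3.42 and 1.71 CPM in starved larvae and at 321 and 285 CPM after 3 h. ugt-22 of the same transferase family was at 4.33, 2.18 and 3.63 CPM and then at 228 and 211 CPM. Neither gene's groups overlapped.

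Other genes of that ranking code for hydrolases and for proteins of the response to microbes or toxins. The prolyl carboxypeptidase-like gene pcp-2 was at 3.33, 2.30 and 1.54 CPM in starved larvae and 117 and 85.1 CPM at 3 h (log2 fold change 5.39 ± 0.27). The invertebrate-type lysozyme gene ilys-5 was at 1.26, 2.59 and 4.18 CPM and then at 45.3 and 58.7 CPM (4.29 ± 0.33). The fed libraries lay well above the starved ones for both. The lipase-related gene lips-10 (4.09 ± 0.26), the hydrolase gene abhd-3.2 (3.94 ± 0.22), the cytochrome P450 gene cyp-35C1 (4.26 ± 0.37), the infection response gene irg-4 (4.31 ± 0.30) and dct-17 (5.66 ± 0.27) rose too. Of these 5 genes, lips-10, abhd-3.2 and cyp-35C1 had a mean at 1 h above that at 3 h.

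The rise of col-149 came after the first hour. The cuticle collagen gene col-149 measured 3.53, 4.34 and 4.65 CPM in starved larvae, 2.85 and 2.38 CPM at 1 h, 49.0 and 91.0 CPM at 3 h and 967, 1366 and 1603 CPM at 6 h. It was thus as low at 1 h as before feeding. The log2 fold change at 3 h was 4.07 ± 0.28 (adjusted p = 8.36e-08), and the libraries at 6 h were all above those at 3 h. The astacin protease gene nas-3 was already higher at 1 h, with means of 1.29, 6.10, 52.9 and 184 CPM in starved larvae and at 1, 3 and 6 h. For the myo-inositol transporter gene hmit-1.1, starved replicate 3 stood at 0.512 CPM against 3.30 and 3.03 CPM in the other two, and both libraries at 3 h, 72.9 and 88.4 CPM, were far above all of them. Its neighbour in the family, hmit-1.2, had the same low library, with 5.86, 5.74 and 0.384 CPM in starved larvae and 56.2 and 59.5 CPM at 3 h.

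**Figure D2:**
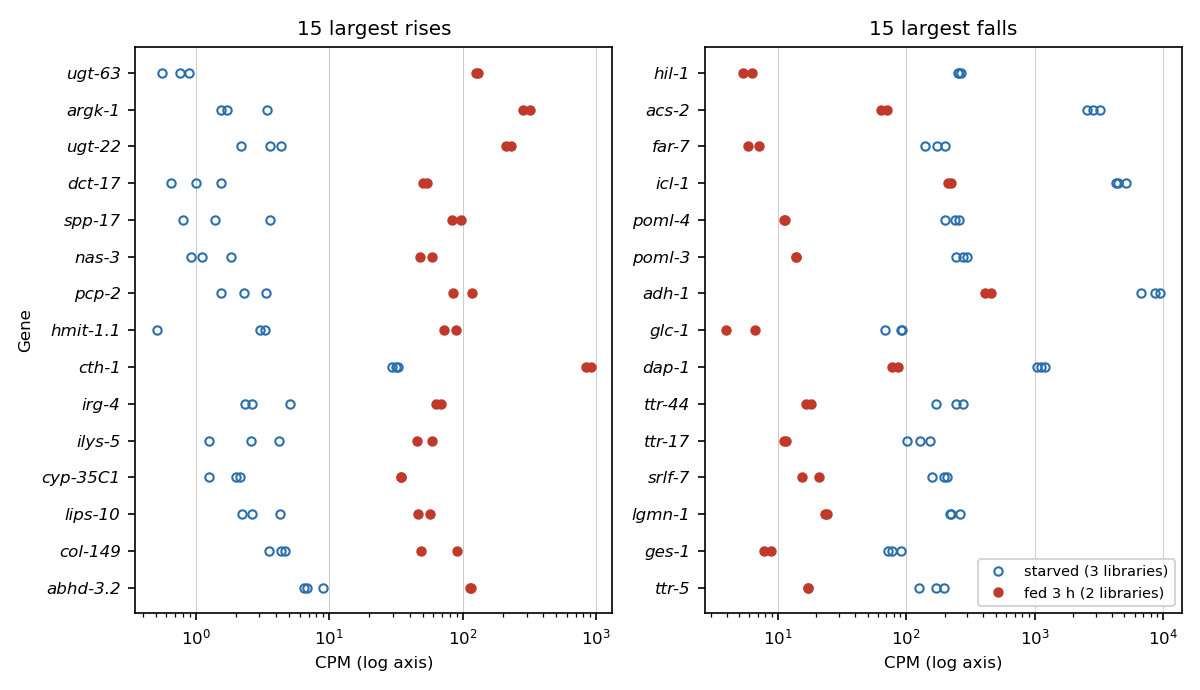
CPM on a log axis (x axis) of the 15 genes with the largest rise (left) and the 15 with the largest fall (right) among called genes at a mean log2 CPM of at least 4, one row per gene (y axis). Open blue circles are the 3 starved libraries and filled red circles the 2 libraries at 3 h. The groups are apart in every row because genes whose groups overlap were left out of the ranking.

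The largest fall among well-expressed genes with a symbol was that of hil-1. The ranking uses the mean over all 10 libraries, fed ones included, and so can leave out genes high mainly in starved larvae. The P450 gene cyp-37B1 and the saposin-like gene spp-2, described below, fell further, by log2 values of -6.30 and -6.03. The linker histone gene hil-1 (C30G7.1, chromosome V, 14949754 to 14952769), a histone H1 variant, measured 265, 254 and 260.1 CPM in starved larvae and 5.41 and 6.32 CPM at 3 h. Starved libraries lay close together and both fed ones were far below them. The log2 fold change was -5.47 ± 0.25 (adjusted p = 3.32e-09), and the level at 1 h, 4.72 and 4.34 CPM, was already as low. The acyl-CoA synthetase gene acs-2 was at 2827, 2554 and 3253 CPM and then at 70.9 and 64.2 CPM, with a log2 fold change of -5.41 ± 0.35. The alcohol dehydrogenase gene adh-1 was at 6739.5, 9531 and 8671 CPM and then at 412 and 456 CPM (-4.26 ± 0.28). For adh-1 the libraries at 3 h lay above those at 1 h, which were at 92.0 and 118 CPM.

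Some of these falls were slower. The legumain-type protease gene lgmn-1 measured 263, 219.9 and 222 CPM in starved larvae, 66.2 and 56.0 CPM at 1 h and 23.3 and 24.3 CPM at 3 h (-3.30 ± 0.23). The paraoxonase-like paralogs poml-3 and poml-4, whose reads may be shared, had means of 138 and 119.5 CPM at 1 h and of 13.9 and 11.2 CPM at 3 h. Starved levels of the pair were 274 and 233 CPM, so that most of the fall on the log scale came after the first hour. dap-1, a homolog of a mammalian death-associated protein gene, fell from 1126 ± 86.1 to 82.0 ± 5.78 CPM (mean ± SD).

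The 8 largest gains in mean CPM among called, well-expressed genes with a symbol and no overlap of the groups were those of eef-1A.2, ahcy-1, hsp-1, col-10 and the ribosomal protein genes rps-14, rplp-0, rpl-3 and rpl-5. The elongation factor gene eef-1A.2, which has a near-identical paralog, rose from 3054, 3407 and 3351 CPM to 12115 and 13663 CPM (1.98 ± 0.22, adjusted p = 6.69e-06). The S-adenosylhomocysteinase gene ahcy-1 rose from 953, 1179 and 794 CPM to 5905 and 6911 CPM (2.72 ± 0.22), and the cytosolic Hsc70 chaperone gene hsp-1 from 757, 1079 and 777 CPM to 4952 and 5380.1 CPM (2.57 ± 0.22). Both libraries at 3 h were above all starved libraries for these genes. The largest gain was that of rps-14, which was at 9603, 3034 and 8845 CPM in starved larvae and at 20561 and 16002 CPM at 3 h, with starved replicate 2 much lower than its fellows. Its call was lost without replicate 1 at 3 h, that of rpl-3 without replicate 2 at 3 h, and that of rpl-5 under 8 of 13 other settings.

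Starved replicate 2 was low for short genes in general and replicate 3 for long ones. With the units put into 5 length classes of equal size, in the shortest class (138 to 786 bp of bins) the median deviation from the group mean of log2 CPM was -0.13 in starved replicate 2 and 0.15 in starved replicate 3, and in the longest class (2211 bp or more) it was 0.14 and -0.17. The libraries at 3 h deviated by about 0.02 or less in each class. The part of this pattern in the results was not tested. The median log2 fold change at 3 h went from -0.12 in the shortest class to 0.05 and 0.02 in the longest ones.

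The 8 largest losses in mean CPM among genes chosen in the same way were those of ant-1.1, adh-1, icl-1, mlc-2, aldo-2, acs-2, mlc-1 and gpd-3. The mitochondrial ADP/ATP carrier gene ant-1.1 fell from 17059, 14620.4 and 20340.0 CPM to 8018 and 8680.0 CPM (-1.05 ± 0.22, adjusted p = 0.00151), with both fed libraries below every starved one. aldo-2, which codes for the glycolytic enzyme aldolase, went from 3798, 4082 and 3924 CPM to 895 and 956 CPM (-2.09 ± 0.20). The glyceraldehyde-3-phosphate dehydrogenase gene gpd-3 (-1.44 ± 0.23) and the paired myosin light chain genes mlc-1 (-1.13 ± 0.23) and mlc-2 (-1.23 ± 0.23) fell as well. Each of these 3 genes has a near-identical paralog, so the split of reads within the pairs is uncertain.

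Gene lists for making RNA polymerase products, ribosomes and proteins were called higher in most of their members, against 21.9% of all units. All 12 subunits of RNA polymerase I and III that were tested rose, with a median log2 fold change of 1.45, where the median of all units was -0.02. The RNA polymerase I gene rpoa-2, which encodes a catalytic subunit of the enzyme that makes ribosomal RNA, rose from 15.8, 13.6 and 12.1 CPM to 86.3 and 76.7 CPM (2.56 ± 0.24). Of 27 nucleolar and ribosome assembly factors 22 rose and the rest were not called, with a median of 1.77. The fibrillarin gene fib-1 (T01C3.7, chromosome V, 15000628 to 15002172), which methylates ribosomal RNA, measured 173, 176 and 171 CPM in starved larvae and 1524 and 1668 CPM at 3 h (3.20 ± 0.21, adjusted p = 5.42e-08). The snoRNP core genes nol-56 (3.05 ± 0.20) and nol-58 (3.24 ± 0.23) moved alike, and nifk-1 did too (3.22 ± 0.19). The fed libraries of all 4 genes lay far above the starved ones.

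Transport between nucleus and cytoplasm took part. Of 36 genes for importins, exportins and pore proteins 31 rose and 1 fell, with a median of 1.04. The importin gene imb-3 rose from 196, 252 and 174 CPM to 1141 and 1225 CPM (2.51 ± 0.23) and the GTPase gene ran-1, which gives transport its direction, from 148, 157 and 193 CPM to 878 and 904 CPM (2.43 ± 0.19). The single gene that fell, xpo-1, encodes the main exportin for proteins, and it went from 415, 467 and 372 CPM to 222 and 241 CPM (-0.85 ± 0.22). That call was lost without replicate 1 at 3 h.

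Translation and folding genes rose over the same hours. Of 37 initiation, elongation and release factors 32 rose and the rest were not called, with a median of 1.50. The eIF4A gene inf-1, an RNA helicase of initiation, rose from 126, 168 and 157 CPM to 1176 and 1337 CPM (3.06 ± 0.20), and the release factor gene erfa-1 from 66.5, 56.8 and 69.4 CPM to 479.9 and 451 CPM (2.86 ± 0.19). All 12 tested subunits of the chaperonin CCT and its partner prefoldin, which fold actin and tubulin, rose, with a median of 1.63, and cct-6 went from 130.2 ± 19.6 to 666 ± 26.7 CPM (mean ± SD). Among 57 heat shock and co-chaperone genes 24 rose (42.1%) and 5 fell (8.77%), beside 21.9% and 19.7% of all units. The J-domain gene dnj-11 rose from 30.6, 33.6 and 22.4 CPM to 219.8 and 195 CPM (2.84 ± 0.19), and hsp-17 of the small heat shock family by 2.73 ± 0.19. With library totals alone 9 of the 57 fell.

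Entry into the secretory pathway was higher too. Of 39 genes for ER translocation, signal peptidase and COP coats 33 rose and the rest were not called, with a median of 1.20. The translocon gene sec-61.B was at 49.7, 45.1 and 56.0 CPM in starved larvae and at 205 and 194 CPM at 3 h (1.99 ± 0.18), and the oligosaccharyltransferase gene ostb-1 at 84.0, 81.0 and 77.1 CPM and 269 and 308 CPM (1.84 ± 0.17). The groups did not overlap in either gene. The protein disulfide isomerase gene pdi-6 had a mean of 541 CPM at 3 h and of 997 CPM at 6 h, up from 157 CPM.

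**Figure D3:**
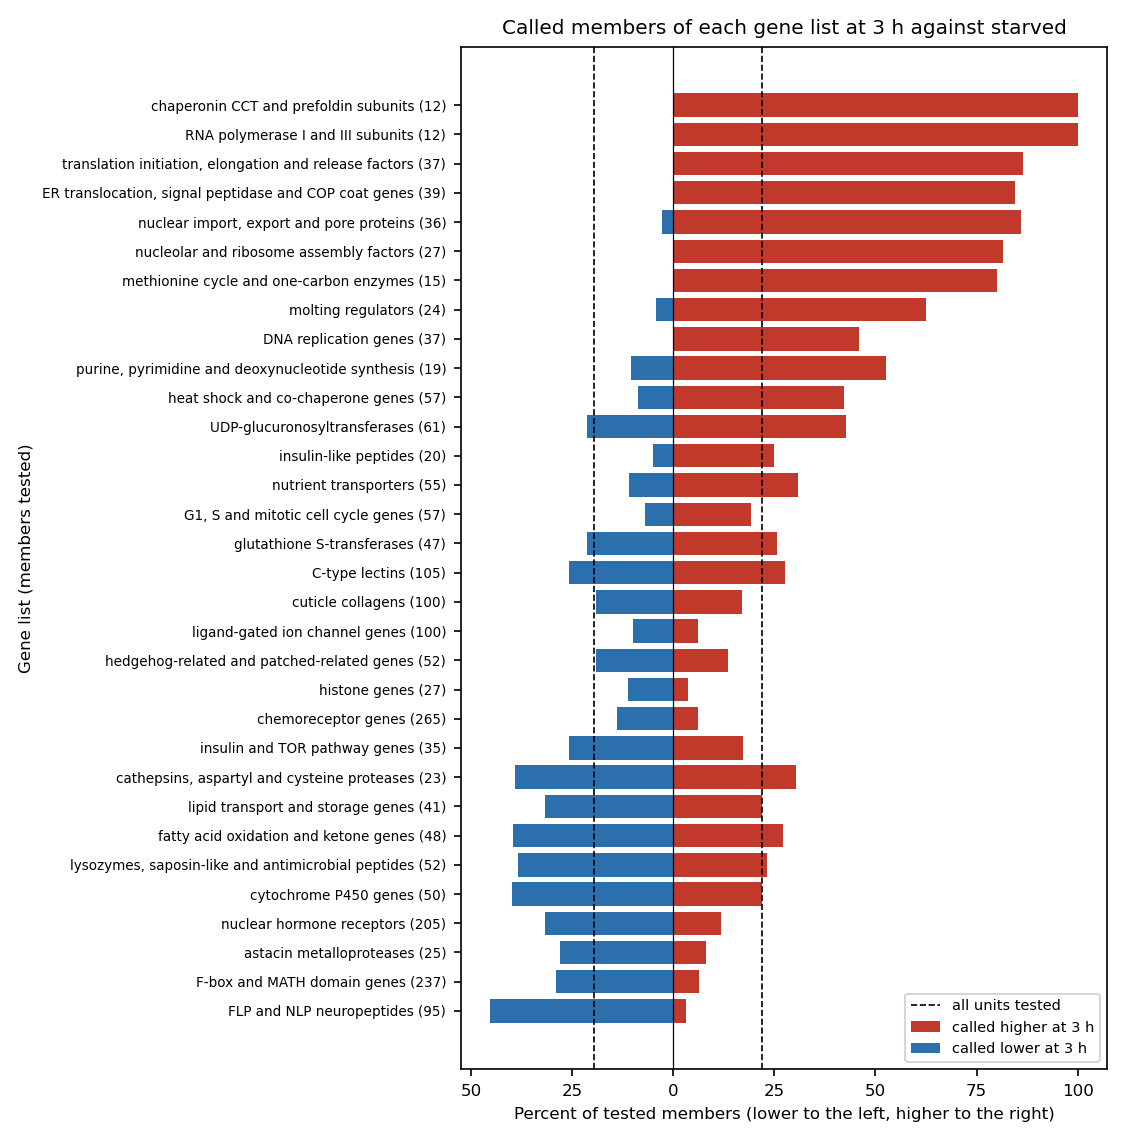
Percent of the tested members of each gene list (y axis, number tested in brackets) that were called higher at 3 h (red, to the right) or lower (blue, to the left). Dashed lines mark the shares of all units tested, 21.9% higher and 19.7% lower, and lists whose bars end near the lines do not stand out from them.

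Genes for building blocks rose in part. Of 15 methionine cycle and one-carbon genes 12 rose and the rest were not called, with a median of 1.20. The transsulfuration genes, whose enzymes turn homocysteine into cysteine, led them. cth-1 (F22B8.6, chromosome V, 16100629 to 16102718) measured 31.3, 29.4 and 32.7 CPM in starved larvae and 831 and 908 CPM at 3 h (4.80 ± 0.19, adjusted p = 1.05e-09), its paralog cth-2 rose by 3.49 ± 0.24 and cbs-1 by 2.81 ± 0.21. Among 19 genes of nucleotide synthesis 10 rose (52.6%) and 2 fell (10.5%), beside 21.9% and 19.7% of all units. The phosphoribosyl pyrophosphate synthetase gene prps-1, which feeds both purine and pyrimidine synthesis, rose from 113, 113 and 100.3 CPM to 482 and 470.2 CPM (2.13 ± 0.16), and the CTP synthase gene ctps-1 from 5.25, 8.92 and 4.44 CPM to 25.4 and 23.3 CPM (1.96 ± 0.40). adss-1, the adenylosuccinate synthetase gene of the AMP branch, fell from 471, 534 and 325 CPM to 227 and 234 CPM (-0.95 ± 0.23). F38B6.4, the other member that fell, lost its call when only the highest bin of each gene was counted.

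Nutrient transporters had a share of rises closer to the background, 17 of 55 higher and 6 lower, and 11 lower with library totals alone. The ZIP family metal transporter gene zipt-2.3 rose from 1.34, 1.14 and 1.83 CPM to 25.7 and 22.2 CPM (4.08 ± 0.24). In the other direction, the carboxylate transporter gene nac-2 fell from 61.8, 45.8 and 61 CPM to 10.9 and 9.09 CPM (-2.49 ± 0.27).

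Some of the replication and cell cycle genes had risen by 3 h. Of 37 DNA replication genes 17 rose (45.9%, beside 21.9% of all units) and the rest were not called. The median log2 fold change was 0.42, or 0.18 with library totals alone. The PCNA gene pcn-1, the sliding clamp of the polymerases, was at 37.4, 36.8 and 48.9 CPM in starved larvae and at 91.1 and 105 CPM at 3 h (1.26 ± 0.18, adjusted p = 5.28e-05). The replicative helicase genes mcm-7 (1.21 ± 0.22), mcm-4 (1.11 ± 0.19) and mcm-5 (1.08 ± 0.19) rose alongside it. Means of these 4 genes at 1 h, from 73.7 CPM for mcm-7 to 86.2 CPM for mcm-5, were already above the starved means. Of 57 genes of the G1, S and mitotic cell cycle 11 rose and 4 fell, beside 21.9% and 19.7% of all units. With library totals alone 6 rose and 6 fell, and without replicate 2 at 3 h 7 rose and 0 fell. Without replicate 1 at 3 h 0 fell as well, and without starved replicate 1 or starved replicate 2 the number was 2.

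Among the cell cycle genes, the phosphatase gene cdc-25.2 was at 8.39, 16.5 and 13.1 CPM in starved larvae and 31.6 and 35.7 CPM at 3 h (1.40 ± 0.26). The mitotic kinase gene cdk-1, the target of that phosphatase family, was at 23.3, 19.9 and 22.4 CPM and 53.5 and 50.5 CPM (1.25 ± 0.15). Both libraries at 3 h were above the starved range for each gene. The genes that set the G1 decision in C. elegans were not called: the cyclin D gene cyd-1 was at 27.6, 35.7 and 39.8 CPM and 43.4 and 48.1 CPM, its kinase gene cdk-4 at 9.96, 10.1 and 9.22 CPM and 10.3 and 10.6 CPM, and the inhibitor gene cki-1 at 29.6, 21.2 and 31.6 CPM and 32.3 and 31.5 CPM. These 3 genes were chosen for their roles after their values were seen. Of 27 histone genes 1 rose and 3 fell, below the background shares, and the sign of their median changed between settings. Without replicate 1 at 3 h 0 histone genes rose and 1 fell, without replicate 2 at 3 h 0 rose and 2 fell, and without starved replicate 3 2 rose. Polyadenylated RNA holds little of the histone transcripts that lack a poly(A) tail.

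Insulin-like peptides had a share of rises not far from that of all units and a lower share of falls. The kinase pathways of nutrient sensing had both shares not far from those of all units, and single members changed. Of the 20 peptide genes tested 5 rose and 1 fell (3 without starved replicate 2), and of 35 insulin, TOR and AMP-activated kinase pathway genes 6 rose and 9 fell. These are 25.0% higher and 5.00% lower for the peptides and 17.1% and 25.7% for the pathway genes, beside 21.9% and 19.7% over all units. daf-28, which encodes an agonist of DAF-2, measured 4.02, 7.51 and 6.70 CPM in starved larvae and 49.5 and 60.5 CPM at 3 h. Both fed libraries were far above the highest starved one. The log2 fold change was 3.17 ± 0.25 (adjusted p = 2.48e-07). ins-26 rose from 2.68, 1.94 and 3.29 CPM to 12.2 and 10.5 CPM (2.12 ± 0.31). The other genes that rose, ins-4, ins-5 and ins-6, were under 1 CPM in every starved library, and the agonist gene ins-6 went from 0.383, 0.436 and 0.0853 CPM to 2.68 and 2.87 CPM. ins-24 went the other way, from 19.6, 19.4 and 19.5 CPM to 4.75 and 4.81 CPM (-2.03 ± 0.27).

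The receptor gene and the kinase genes akt-1, akt-2 and pdk-1 were lower at 3 h, and other kinase genes of the pathway were not called. daf-2 (Y55D5A.5, chromosome III, 2995753 to 3028790) measured 96.3, 124 and 66.1 CPM in starved larvae and 34.0 and 26.2 CPM at 3 h (-1.67 ± 0.28, adjusted p = 2.14e-04). The insulin receptor substrate gene ist-1 was at 81.7, 84.8 and 68.3 CPM and then at 15.9 and 15.9 CPM (-2.30 ± 0.21). For akt-1 (C12D8.10, chromosome V, 10248876 to 10252866), a kinase that phosphorylates DAF-16, the values were 313, 249 and 289.9 CPM and 47.7 and 47.3 CPM (-2.58 ± 0.18, adjusted p = 7.94e-08). The groups were apart for all of these, and the same held for the upstream kinase gene pdk-1 (-1.19 ± 0.26) and for akt-2 (-0.94 ± 0.15). The libraries at 1 h were lower than those at 3 h for akt-1, akt-2 and pdk-1, with akt-1 at 28.1 and 30.1 CPM. The lipid kinase gene age-1 (-0.20 ± 0.20, adjusted p = 0.464), the kinase gene sgk-1 (0.29 ± 0.19, adjusted p = 0.258), the phosphatase gene daf-18 (0.15 ± 0.16, adjusted p = 0.488) and daf-16 itself (-0.49 ± 0.25, adjusted p = 0.134) were not called.

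Genes of AMP-activated protein kinase went in both directions. The gamma subunit gene aakg-4 of AMP-activated protein kinase fell from 166, 133 and 149 CPM to 18.8 and 16 CPM (-3.10 ± 0.21, adjusted p = 5.50e-08), the largest change on the list. The beta subunit gene aakb-1 (-1.22 ± 0.23) and the catalytic subunit gene aak-1 (-1.13 ± 0.27) fell, whereas another gamma subunit gene, aakg-2 (0.66 ± 0.17), and par-4, the gene of the upstream LKB1 kinase (0.76 ± 0.18), rose. On the TOR side the Rag GTPase gene ragc-1, whose product brings TOR to the lysosome, rose from 57.2, 49.2 and 60.7 CPM to 109 and 104 CPM (0.94 ± 0.17). The TOR gene let-363 (-0.28 ± 0.24), the raptor gene daf-15 (-0.48 ± 0.21) and the S6 kinase gene rsks-1 (0.07 ± 0.19) were not called. The other genes of the list that rose were par-5 (0.60 ± 0.18), nprl-2 (0.54 ± 0.16) and sesn-1 (0.50 ± 0.15), and rskn-1 fell (-0.61 ± 0.16). The smaller rises on this list depended on the scaling and the libraries: with library totals alone 2 genes rose and 15 fell, and without replicate 2 at 3 h 2 rose.

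**Figure D4:**
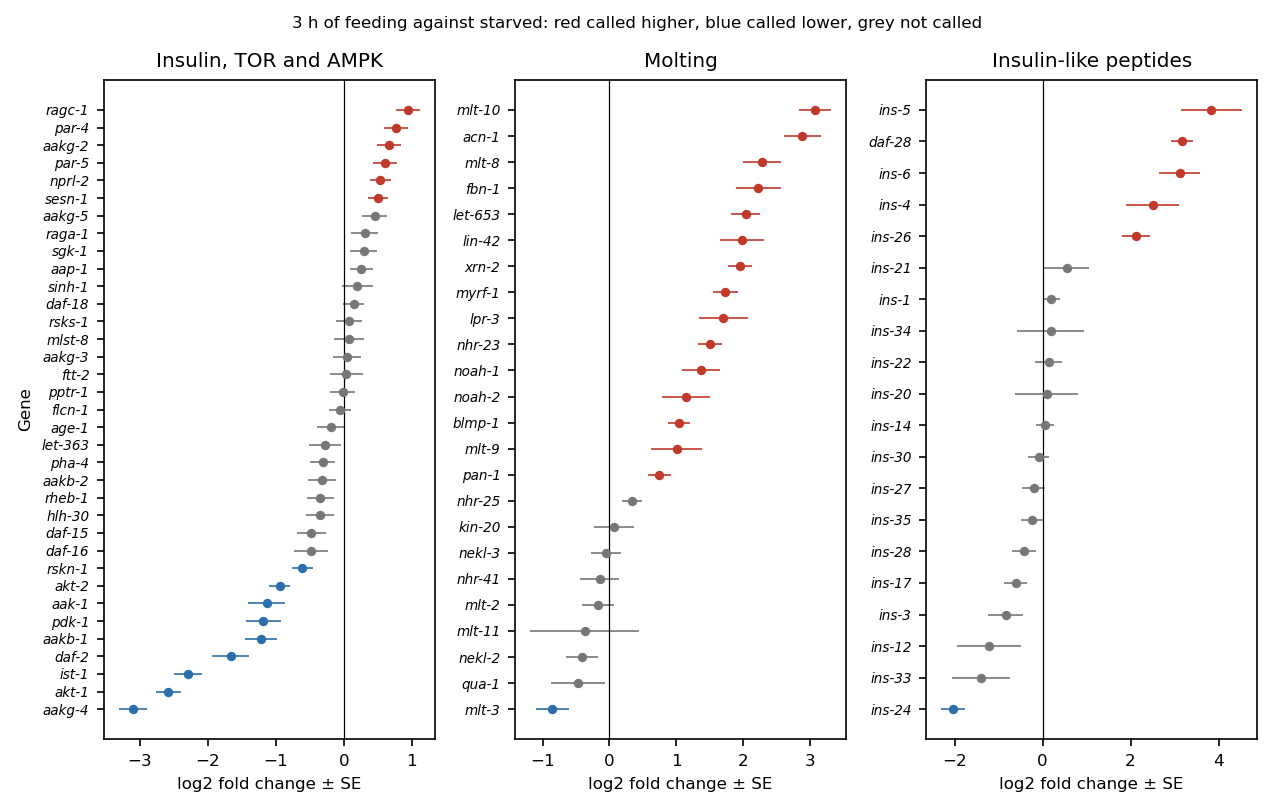
Log2 fold change ± SE at 3 h against starved larvae (x axis) of every tested gene (y axis) of the insulin, TOR and AMP-activated kinase list (left), of the molting list (middle) and of the insulin-like peptides (right). Red genes were called higher, blue ones lower and grey ones neither. The genes akt-1 and aakg-4 lie at the low end while daf-28 lies near the high end.

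Genes of the molting program had started to rise. Of 24 tested 15 rose (62.5%) and 1 fell (4.17%), beside 21.9% and 19.7% of all units, with a median of 1.10. The nuclear receptor gene nhr-23 (C01H6.5, chromosome I, 7214743 to 7221804), which drives molting genes, measured 11, 12.8 and 14.5 CPM in starved larvae, 15.6 and 18.1 CPM at 1 h, 33.8 and 38.7 CPM at 3 h and 115, 108 and 143 CPM at 6 h. Each group lay wholly above the one before it. The log2 fold change at 3 h was 1.50 ± 0.18 (adjusted p = 1.19e-05). The transcription factor genes myrf-1 (1.73 ± 0.18) and blmp-1 (1.04 ± 0.16) and the Period homolog lin-42 (1.98 ± 0.33) rose as well, and their libraries at 6 h were all above those at 3 h.

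Structural and processing genes of the apical matrix were higher as well. acn-1, an ACE-like gene needed for molting, was at 1.80, 3.20 and 1.32 CPM in starved larvae and 14.2 and 17.9 CPM at 3 h (2.88 ± 0.28), and its mean at 6 h was 75.8 CPM. The fibrillin-related gene fbn-1 was at 2.41, 3.78 and 1.45 CPM and 12.2 and 12.4 CPM (2.23 ± 0.34), with 125 CPM at 6 h. The matrix genes noah-1, let-653 and lpr-3 rose by 1.37 ± 0.29, 2.04 ± 0.22 and 1.70 ± 0.37. At 3 h these genes were therefore higher than in starved larvae but still far under their level at 6 h. mlt-10 differed, since 24.1 and 24.9 CPM was reached at 1 h, 27.2 and 30.5 CPM at 3 h and a mean of 40.9 CPM at 6 h. mlt-3, the member that fell (-0.85 ± 0.25), lost its call without either library at 3 h.

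Cuticle genes as a class showed no common direction at 3 h. Of 100 cuticle collagens 17 rose and 19 fell, close to the background, but the summed CPM of the list was higher, at 13593 to 29137 CPM in starved larvae and 32519.6 to 55366 CPM at 3 h. How single collagens made up that sum was not worked out. The abundant collagen gene col-10 was at 1472, 2495 and 3051 CPM and then at 5062 and 8474 CPM (1.53 ± 0.30). Replicate 2 at 3 h was above replicate 1 for col-10, col-145 and col-149. Among collagens that fell, col-98 went from 531, 566 and 642 CPM to 115 and 162 CPM (-2.06 ± 0.24) and col-107 from 246, 256 and 317 CPM to 70.6 and 82.4 CPM (-1.84 ± 0.23). Without replicate 1 at 3 h 10 collagens fell, and without replicate 2 at 3 h 11 rose. Of 25 astacin proteases 2 rose (8%) and 7 fell (28%), beside 21.9% and 19.7% of all units. Fewer astacin genes fell without either library at 3 h, and 4 fell without starved replicate 1. nas-9 went from 46.6 ± 9.45 to 7.94 ± 1.49 CPM and the protease gene toh-1 from 20.9 ± 1.96 to 8.67 ± 0.712 CPM (mean ± SD). Among 52 hedgehog-related and patched-related genes 7 rose (13.5%) and 10 fell (19.2%), the falls near the share of all units. Fewer fell without replicate 1 at 3 h. grd-3 fell from 129, 187 and 139.8 CPM to 21.8 and 30.9 CPM (-2.53 ± 0.25), whereas ptr-14 rose from 16.1, 13.3 and 12.8 CPM to 75.6 and 80.8 CPM (2.48 ± 0.16).

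Markers of tissues were read to check the labelled stage. Muscle genes were the tissue list with the most falls: 8 of 10 body wall muscle genes (80%) fell, beside 19.7% of all units. The other tested members were not called, and fewer muscle genes fell without either library at 3 h. Their summed level was 6393 to 8920 CPM in starved larvae and 3860 to 4776 CPM at 3 h. The myosin heavy chain gene myo-3 measured 558, 624 and 402 CPM in starved larvae and 88.2 and 114 CPM at 3 h (-2.39 ± 0.28, adjusted p = 8.89e-06), with no overlap. The troponin T gene tnt-2 (-1.38 ± 0.24), the troponin I gene unc-27 (-1.35 ± 0.20) and the giant kinase gene unc-22 (-1.34 ± 0.31) fell too, and unc-22, a very long gene, was lowest among starved libraries in replicate 3, with 476, 546 and 258 CPM. In bulk RNA of whole larvae fewer cells of a type and less RNA per cell cannot be told apart. unc-54 and hlh-1 were not analysed here.

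In pharynx and neuron markers the number of falls depended on the settings. Of 11 pharynx genes 4 fell (36.4%, beside 19.7% of all units) and the rest were not called. With upper-quartile factors or DESeq2 7 fell, and with library totals alone 9. Summed levels were 2943 to 5106 CPM in starved larvae and 2061 to 2396 CPM at 3 h. marg-1 was at 218, 409 and 299.9 CPM and then at 107 and 138 CPM (-1.34 ± 0.28), and the homeobox gene ceh-22 fell by a log2 value of -0.78 ± 0.18. Of 18 neuronal genes 1 rose (5.56%) and 3 fell (16.7%), beside 21.9% and 19.7% of all units. Without starved replicate 2 0 fell, but without starved replicate 3 5 did. Fewer neuronal genes fell without either library at 3 h. The synaptic vesicle gene rab-3 was at 133, 103 and 136 CPM and 122 and 115 CPM and was not called (-0.06 ± 0.19).

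Intestine markers went in both directions. Of 13 genes 6 rose (46.2%) and 3 fell (23.1%), beside 21.9% and 19.7% of all units, and the summed level was 4999.7 to 6993 CPM in starved larvae and 8049 to 9084 CPM at 3 h. The peptide transporter gene pept-1, which takes up digested protein, rose from 65.4, 55.5 and 73.1 CPM to 326 and 286 CPM (2.24 ± 0.19), the intestinal actin gene act-5 from 188, 252 and 237 CPM to 873 and 948 CPM (2.01 ± 0.21), and the acid phosphatase gene pho-1 by 3.14 ± 0.19. In contrast the gut esterase gene ges-1 fell from 90.7, 72.6 and 77.6 CPM to 7.86 and 8.80 CPM (-3.27 ± 0.22, adjusted p = 5.25e-08) and the protease gene cpr-6 by a log2 value of -1.72 ± 0.18. The master regulator gene elt-2 was at 22.1, 21.6 and 29.2 CPM and 26.0 and 31.2 CPM and was not called.

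The remaining markers were those of the epidermis, of coelomocytes and excretory cells, of glia, of the germ line and of embryos. Their shares stand beside 21.9% higher and 19.7% lower over all units. Of 12 epidermal genes listed 7 had bins and 6 had enough reads to be tested. Of these 6 genes 3 rose (50%, summed level 172 to 192 CPM against 285 to 294 CPM). Of 11 coelomocyte and excretory genes 4 rose (36.4%), among them the aquaporin gene aqp-8 from 50.7, 16.1 and 31.6 CPM to 146 and 124 CPM (2.04 ± 0.32), and 2 rose without either library at 3 h. Of 10 glial genes 0 were called with TMM factors in edgeR or with DESeq2, and 1 had an unadjusted p under 0.05 in edgeR. With upper-quartile factors or library totals alone 1 glial gene fell, and with the replicate block, without starved replicate 2 or with the highest bin of each gene 1 rose. Of 19 germ line genes 2 rose (10.5%) and 5 fell (26.3%), with a median of -0.70. They summed to 326 to 365 CPM in starved larvae and 293 to 298 CPM at 3 h. Fewer germ line genes fell without either library at 3 h, and 3 fell without starved replicate 2 or 3. The Piwi gene prg-1 was among the 2 that rose, from 22.1, 24.5 and 19.9 CPM to 60.7 and 57.5 CPM (1.41 ± 0.16). Of 16 maternal and early embryo genes 1 rose (6.25%) and 5 fell (31.25%). Of these genes fewer fell without either library at 3 h, 3 without starved replicate 3 and 2 without starved replicate 2. Their summed level was 225 to 336 CPM in starved larvae and 238 to 281 CPM at 3 h. Yolk protein genes summed to 1.15 to 2.88 CPM in starved larvae and 2.62 to 3.06 CPM at 3 h, near zero in both.

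Transthyretin-like genes, which code for small secreted proteins of nematodes, were often lower at 3 h. Of 46 tested 25 fell (54.3%, beside 19.7% of all units) and 2 rose, with a median of -1.10, and 23 or more fell when any library was left out. This list was added after the values were seen. ttr-44 (C56A3.2, chromosome V, 13529544 to 13530726) measured 244, 171 and 276 CPM in starved larvae and 18.1 and 16.7 CPM at 3 h (-3.73 ± 0.25, adjusted p = 5.42e-08). ttr-17 was at 152, 102 and 129 CPM and then at 11.7 and 11.3 CPM (-3.47 ± 0.27), and ttr-5 at 170.0, 125 and 198 CPM and 17.3 and 17.3 CPM (-3.25 ± 0.22). In each, starved replicate 2 was the lowest starved library and still far above the fed ones. Against these, ttr-31 rose from 15.2, 12.4 and 18.3 CPM to 58.1 and 55.0 CPM (1.89 ± 0.19) and ttr-22 from 3.99, 2.96 and 5.72 CPM to 11.5 and 10.9 CPM (1.41 ± 0.29).

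Neuropeptide genes of the FLP and NLP families code for secreted signalling peptides. Of 95 tested 43 fell (45.3%, beside 19.7% of all units) and 3 rose, with a median of -0.57. Without replicate 1 at 3 h 25 fell, where 12.4% of all units did, and without replicate 2 at 3 h 28 fell, where 12.5% did. The 18 neuronal marker genes summed to 2997 to 4056 CPM in starved larvae and 2432 to 2506 CPM at 3 h, and their part in this result was not tested. flp-33 was at 44.5, 32.1 and 51.4 CPM in starved larvae and 16.1 and 12.1 CPM at 3 h (-1.60 ± 0.24), and nlp-2 at 15.1, 11.8 and 14.3 CPM and 4.20 and 5.20 CPM (-1.54 ± 0.26). nlp-29 and nlp-27, which are known as antimicrobial peptides of the epidermis rather than as neural signals, fell by log2 values of -1.77 ± 0.37 and -1.50 ± 0.27. Of the genes that rose, nlp-25 was at 0.345, 0.824 and 0.128 CPM and then at 9.28 and 11.4 CPM, and nlp-24 at 23.6, 17.1 and 26.8 CPM and 37.9 and 42.5 CPM, while nlp-23 stayed at or under about 1 CPM in all libraries of both groups.

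Sensory receptors and ion channels were seldom called. Of 1629 chemoreceptor genes in the annotation only 278 had bins. Of 265 chemoreceptor genes 16 rose and 37 fell, both under the background, and without replicate 1 at 3 h 8 rose and 21 fell, without replicate 2 at 3 h 11 rose and 16 fell. With all libraries 6.04% of the chemoreceptor genes rose and 13.96% fell, and the list summed to only 514 to 641 CPM in starved larvae. Over all units with a mean log2 CPM under 0, 5.24% rose and 17.1% fell. With one of 0 to 2, 7.70% rose and 22.6% fell. The share of rises was thus near that of units at low levels, and the part of level in these shares was not tested. The chemoreceptor gene srj-14 nevertheless fell from 20.3, 21.9 and 27.4 CPM to 1.75 and 1.94 CPM (-3.65 ± 0.36). Of 100 ligand-gated channel genes 6 rose and 10 fell, and without replicate 1 at 3 h 0 rose and 3 fell, without replicate 2 at 3 h 2 rose and 4 fell, and without starved replicate 2 3 rose. With upper-quartile factors 1 rose and 17 fell, and with library totals alone 0 rose and 19 fell. The glutamate-gated chloride channel genes glc-1 and avr-15 fell too, glc-1 by a log2 value of -3.97 ± 0.26 and avr-15 from 98.8, 74.8 and 59.7 CPM to 39.5 and 38.1 CPM.

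Nuclear hormone receptors and F-box proteins are both large families in nematodes. Of 205 nuclear receptor genes 24 rose (11.7%) and 65 fell (31.7%), beside 21.9% and 19.7% of all units, with a median of -0.37, and without replicate 1 at 3 h 11 rose and 41 fell, without replicate 2 at 3 h 13 rose and 38 fell. nhr-19 measured 141, 151 and 147 CPM in starved larvae and 28.8 and 28.8 CPM at 3 h (-2.35 ± 0.17, adjusted p = 9.33e-08), with the means at 1 h and 6 h at 9.89 and 28.0 CPM. nhr-206 was at 22.9, 14.2 and 17.1 CPM and then at 2.08 and 2.33 CPM (-3.03 ± 0.33). With library totals alone 13 nuclear receptor genes rose and 88 fell. Of 237 F-box and MATH domain genes 15 rose (6.33%) and 69 fell (29.1%), with a median of -0.50, and without replicate 2 at 3 h 6 rose and 44 fell. Without replicate 1 at 3 h 4 rose, and without starved replicate 2 it was 6, while with library totals alone 4 rose and 87 fell. fbxa-24 was at 97.8, 82.5 and 73.1 CPM and 13.2 and 11.5 CPM (-2.78 ± 0.22), and bath-26 at 35.2, 32.5 and 31.3 CPM and 6.77 and 5.69 CPM (-2.41 ± 0.19). Over all units with a mean log2 CPM under 0, 5.24% rose and 17.1% fell, and with one of 0 to 2, 7.70% rose and 22.6% fell.

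Detoxification families changed member by member, and their shares stand beside 21.9% higher and 19.7% lower over all units. Of 61 UDP-glucuronosyltransferases 26 rose (42.6%) and 13 fell (21.3%). ugt-34 and ugt-16 rose from under 2 CPM in every starved library to 23.3 and 23.4 CPM and to 28.2 and 21.5 CPM at 3 h, and ugt-34 had been at 106 and 92.9 CPM at 1 h. Of 50 cytochrome P450 genes 11 rose (22.0%) and 20 fell (40.0%), with a median of -0.70. cyp-37B1 fell from 60.1, 54.5 and 51.5 CPM to 0.983 and 0.437 CPM (-6.30 ± 0.30), the largest change of that list among genes at a mean log2 CPM of at least 2. Of 47 glutathione S-transferases 12 rose and 10 fell, near the background, and 6 fell without replicate 1 at 3 h. gst-24 (18.0, 21.2 and 17 CPM, then 212 and 218 CPM) and gst-41 (38.9, 27.0 and 39.6 CPM, then 1.53 and 1.80 CPM) moved in opposite directions, by 3.52 ± 0.19 and -4.39 ± 0.37.

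Genes of digestion and defence against microbes went in both directions, again beside 21.9% higher and 19.7% lower over all units. Of 52 lysozyme, saposin-like and antimicrobial peptide genes 12 rose (23.1%) and 20 fell (38.5%). The saposin-like genes spp-23 and spp-2 moved in opposite directions: spp-23 was at 0.230, 0.436 and 1.32 CPM in starved larvae and 41.0 and 54.2 CPM at 3 h (6.24 ± 0.39), and spp-2 at 102, 95.7 and 149 CPM and 2.51 and 1.07 CPM (-6.03 ± 0.50). Of 105 C-type lectins 29 rose (27.6%) and 27 fell (25.7%), and 15 fell without replicate 1 at 3 h. clec-258 rose from under 1 CPM in starved larvae to 22.3 and 18.9 CPM, and clec-75 fell from 33.5, 35.7 and 70.3 CPM to 2.95 and 2.72 CPM. Of 23 cathepsin-type and aspartyl proteases 7 rose (30.4%) and 9 fell (39.1%), and 5 fell without either library at 3 h. The cathepsin B-like gene cpr-5 rose from 19.3, 32.9 and 34.6 CPM to 285 and 362 CPM (3.48 ± 0.28), while the cathepsin Z gene cpz-1 fell from 169.8, 296 and 231 CPM to 24.2 and 29.6 CPM (-3.11 ± 0.25).

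Genes of fat use changed in both directions. Of 48 fatty acid oxidation and ketone genes 13 rose (27.1%) and 19 fell (39.6%), beside 21.9% and 19.7% of all units, and without replicate 2 at 3 h 10 fell. The acyl-CoA synthetase gene acs-11 fell from 419, 415 and 322 CPM to 46.8 and 43.8 CPM (-3.09 ± 0.20), and the carnitine palmitoyltransferase family gene cpt-5 rose from 7.97, 8.0 and 10.1 CPM to 58.9 and 44.4 CPM (2.58 ± 0.18), down from a mean of 205 CPM at 1 h. The acyl-CoA dehydrogenase gene acdh-1 varied widely within groups, with 1782, 624 and 1123 CPM in starved larvae and 309 and 97.3 CPM at 3 h, and its call was lost without replicate 2 at 3 h. Of 41 lipid transport and storage genes 9 rose (22.0%) and 13 fell (31.7%), and 8 fell without either library at 3 h. The intracellular lipid-binding protein gene lbp-1 was at 172, 153 and 204 CPM and then at 17.3 and 23.3 CPM (-3.12 ± 0.23), after 135 and 108 CPM at 1 h. The lipase gene lipl-3 was at 40.0, 65.3 and 57.8 CPM and 7.04 and 5.59 CPM (-3.11 ± 0.37).

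Some genes had their highest or lowest level of the series at 3 h. Both libraries at 3 h were above all 8 other libraries for 2.61% of the units (345) and below all of them for 3.19% (422). Some units would take such a place by a random order of the 10 libraries, and that share was not estimated. The counts are therefore not numbers of peaks or troughs shown to be real. gst-24 stood out most among the high ones: its libraries were at 28.0 and 28.7 CPM at 1 h, 212 and 218 CPM at 3 h and 59.7, 90.4 and 62.0 CPM at 6 h. The transferase gene ugt-46 followed, with means of 30.7, 199, 326 and 221 CPM in starved larvae and at 1, 3 and 6 h. The purine salvage gene hprt-1, whose enzyme recovers hypoxanthine and guanine, had means of 20.5, 122, 182 and 129.9 CPM. The proteasome activator gene psme-3, the arrestin domain gene arrd-10, cth-1, col-145, nosr-1, faxc-1 and odr-2 completed the first 10, and the difference of odr-2 from starved larvae (0.45 ± 0.17) lost its call under 10 of 13 other settings.

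The genes with a trough at 3 h included those of the gut esterase ges-1, of peroxisomal and fatty acid metabolism and of transthyretin-like proteins. ges-1 was at 23.4 and 28.1 CPM at 1 h, 7.86 and 8.80 CPM at 3 h and 19.9, 25.0 and 28.4 CPM at 6 h. The enoyl-CoA hydratase gene ech-6 had means of 286, 149, 76.2 and 252 CPM in starved larvae and at 1, 3 and 6 h. The peroxisomal membrane transporter gene pmp-5 went the same way, with 354, 189.9, 85.7 and 309.7 CPM. For ech-6 and pmp-5 the mean at 6 h was again near the starved level. zig-9, glb-1, srlf-7, ttr-25, ttr-41, ttr-44 and ttr-47 were the others. These genes were chosen for the shape and are a description without a test.

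**Figure D5:**
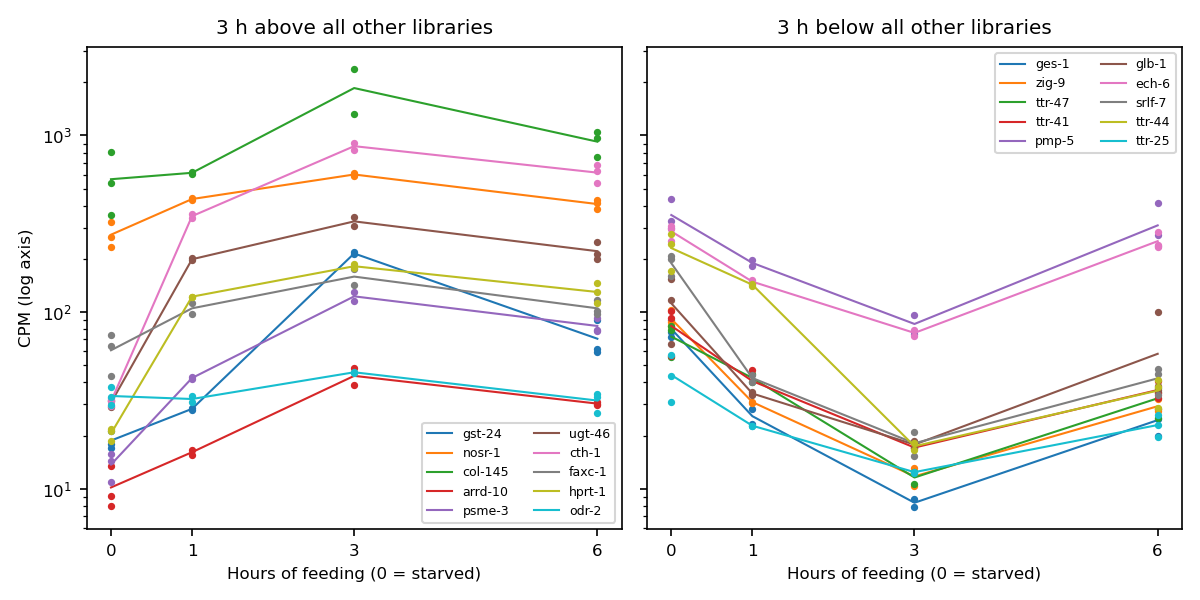
CPM on a log axis (y axis) over hours of feeding, with starved larvae at 0 (x axis), for the 10 genes whose libraries at 3 h lie furthest above all others (left) and furthest below all others (right). Points are single libraries and lines join group means, and the genes were chosen for this shape.

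All 211 genes chosen by the rules for named genes had the same direction in the pair of libraries with barcodes 1 and 2 and in the pair with barcodes 5 and 6, where a group has 1 library and no test is possible. Within these pairs the log2 fold change was 7.63 and 6.35 for argk-1, -5.31 and -5.31 for acs-2, and -2.71 and -2.39 for akt-1. Of the 211, 176 kept their call under all 13 other settings. In the authors' deposited FPKM values, which pool the libraries of a time, all 211 differed in the same direction. All 211 genes had been called in these same libraries, from which the pairs and the FPKM values also come. Agreement in direction was therefore largely set by the choice of genes and is no independent support.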

How the data were processed

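Counts were compared between 3 starved libraries and 2 libraries fed for 3 h, with groups from the sample titles. The deposited counts are reads per exonic bin in WS210 gene models, made by the authors after alignment. The submitters' processing notes name TopHat and Bowtie 0.12.7. The counts include reads whose 22 bp spliced leader was stripped, per the labels. A strand setting for the counting was not given in the sources used here, and antisense overlaps and near-identical paralogs are uncertain. The deposited FPKM values are the authors' cuffdiff estimates (Cufflinks 1.0.2), 1 per gene and time. Bins were summed per gene unit, so a read over several bins counts in each. Lines for reads outside bins were left out. Symbols came from a WBcel235 annotation, with names matched for 12922 of 13117 single genes.

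edgeR 4.0.16 in R 4.3.3 (TMM, filterByExpr by group, robust quasi-likelihood fit) was run over all 10 libraries in 4 groups, which share one estimate of the spread, with 6 residual degrees of freedom, and removed 148 units. The contrast was fed 3 h against starved, with Benjamini-Hochberg adjustment over 13226 units and a threshold of 0.05. The series' text speaks of biological replicates but names no cultures, so p-values measure the spread between samples, which may be technical. The code was run on simulated counts to see that it returns known changes, which says nothing of the calibration on these libraries. Other settings were RLE and upper-quartile factors, library totals alone, no filter, only the 5 libraries, a replicate block, leaving out each library, the highest bin of each gene, and DESeq2 1.42.0.

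Named genes were single genes with a symbol: the 15 largest rises and falls in log2 fold change and the 8 in mean CPM, among called genes without overlap and at a mean log2 CPM of at least 4, up to 4 called members per list (mean log2 CPM of at least 2) plus up to 3 against its majority, and the 10 most extreme at 3 h. Other members of the insulin, molting, cell cycle and marker lists were named for their role after their values were seen. Genes and the 43 lists were chosen with earlier results of these data known. After values were seen, members whose symbols belong to other families were removed from lists, and the transthyretin-like list was added.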

Additional observations from a re-analysis of the deposited data

Results flagged for a closer look

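Some genes have no exonic bins in the counts but have a value in the authors' deposited table of FPKM, which the comparisons above did not use. Of 24 such genes with a symbol, 300 bp or more and 100 FPKM or more at either time, 3 are given here. They had the largest ratios of 3 h to starved larvae, each more than 2-fold. In the authors' deposited table the mitochondrial ribosomal protein gene mrpl-32 was at 48.0 FPKM in starved larvae and 106 (105.533) FPKM at 3 h, and mrpl-15 at 37.7 and 135 (135.074) FPKM. The cap-binding protein gene ife-2, an eIF4E homolog, was at 47.8 and 115 (114.989) FPKM in the authors' deposited table. These values pool the libraries of a time and carry no error, so the differences were not tested.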

How the results depend on the processing

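The number of units called at 3 h was 5501, and it lay between 3857 (highest bin of each gene) and 5823 (replicate block by barcode set) over the settings that kept every library. Leaving out one library gave 3744 to 5287 calls, with 2096 to 2786 higher and 1648 to 2501 lower, and the low ends were those without replicate 1 at 3 h. With the block 3083 units were higher and 2740 lower, and 5303 calls were shared with the same direction. Libraries of the same barcode set deviated together in both pairs of these groups (correlations 0.330 and 0.214). Over all 10 libraries the 13 same-set pairs were all positive (0.0766 to 0.330, 4 of them at or under 0.1), against 5 of 24 other pairs, and all 10 libraries correlated best with one of their own set. In a group of 2 libraries the deviations from the group mean are mirror images of each other. Many of these correlations are therefore copies of one another, with or without a change of sign. The counts of pairs and of libraries thus overstate how often the sets were seen to go together. The pattern is a hint from the data, since the labels do not say what the sets share. DESeq2 gave 5788 calls, of which 5474 were shared, and the 5 libraries alone 5269. Library totals alone gave 2014 higher and 3570 lower, and upper-quartile factors 2400 and 3211. Of the 211 named genes 35 lost their call under at least 1 setting and 0 reversed. Precision is limited by the 2 libraries at 3 h. Of the 43 gene lists, 22 had a count of rises or falls moved by over 1.5 times without replicate 1 at 3 h, 18 without replicate 2 at 3 h, 20 with the highest bin, 17 with library totals alone and 6 with DESeq2.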

Other observations

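Among the same 24 genes outside the exonic bins, the 3 with the lowest ratio of 3 h to starved larvae are given here. Their FPKM values are from the authors' deposited table, pool the libraries of a time and carry no error. The noncoding RNA gene tts-1 was at 8757 FPKM in starved larvae in the authors' deposited table, 856 at 1 h, 72.8 at 3 h and 47.9 at 6 h. It had the largest ratio between starved larvae and 3 h among the genes of that table that have a symbol, no bins, 300 bp or more and 100 FPKM or more at either time. In the authors' deposited table fipr-8 was at 188 FPKM in starved larvae and 69.5 at 3 h, after 189 at 1 h, and the TRPV channel gene ocr-1 at 168 and 69.2.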
